A study of Homo sapiens with 6 samples.

Results

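Aminoacyl-tRNA synthetases join each amino acid to its transfer RNA. The genes described here are 20 for cytosolic enzymes or their subunits, 16 for mitochondrial enzymes, and 3 for scaffold proteins of the multisynthetase complex, 39 of the 60027 genes in the deposited table. Their rows were found by gene symbol alone, and all 39 symbols were found once each. The members themselves were chosen with earlier results of these data known. Polyadenylated RNA had been sequenced from NCI-H292, a human mucoepidermoid lung carcinoma line, in 3 libraries labelled as knockdown of the long noncoding RNA SH3PXD2A-AS1 and 3 labelled as negative control. Both groups are the same line with no other allele or agent in the labels, and the series text calls the control a vector control. The sources used here name no knockdown reagent, and they do not say that libraries were grown as separate cultures. The p-values therefore describe library-to-library spread alone, and that spread may be technical. Fewer cells and less RNA per cell cannot be told apart in such bulk samples.

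As background, the enzymes fall into class I and class II by the fold of their catalytic domain. The genes whose symbols end in 2 encode enzymes that are made in the cytosol and imported to charge the transfer RNAs of mitochondria. In the cytosol, EPRS, IARS, LARS, MARS, QARS, RARS, KARS and DARS sit together in the multisynthetase complex, held by AIMP1, AIMP2 and EEF1E1, while the other cytosolic enzymes are free of it. GARS and KARS each encode both the cytosolic and the mitochondrial enzyme. Uncharged transfer RNA activates the kinase GCN2, which raises translation of ATF4, and ATF4 is known to drive many cytosolic synthetase genes together with asparagine synthetase and amino acid transporters. WARS, the tryptophanyl enzyme, is in addition a known interferon-induced gene.

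Levels are given in TPM, a unit that corrects for gene length and gives every library an equal sum. TPM keeps no sequencing depth, so the depth is unknown, and 15432 to 15883 genes per library reached 1 TPM. The targeted RNA was low everywhere, with control replicates 1 to 3 at 0.96, 0.75 and 0.51 TPM and knockdown replicates at 0.37, 0.68 and 0.44 TPM, and the groups overlapped (exact two-sided permutation p = 0.2, where 0.1 is the smallest p that 3 against 3 allows). All 6 epithelial markers checked were present, the lowest value being 61.0 TPM. They summed to 3220 to 3320 TPM in control and 3600 to 3690 TPM in knockdown libraries, without overlap. The 5 leukocyte markers summed to 1.23 to 1.97 TPM over all libraries, with PTPRC at 0 in each, and the 3 endothelial markers to 1.18 to 1.93 TPM. The 4 fibroblast markers summed to 19.7 to 22.2 TPM in control and 22.2 to 26.5 TPM in knockdown libraries, with 3 of the 4 under 1 TPM in every library, and their part in the results was not tested.

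RefSeq promoter windows on GRCh38.p14, from 250 bases before to 50 after a gene start, were found for 33 of the 39 genes, in 45 windows; DARS, LARS, VARS, YARS, AARS2 and VARS2 had none. The core of the ATF4 composite element, searched as TTGCNTCA on either strand, was in 3.22% of all 35116 windows, those of 1095 of 27305 genes. Other forms of the element were not searched. The core as searched was in windows of 6 of the 16 cytosolic genes with a window, AARS, CARS, IARS, MARS, NARS and TARS. It was in none of the 14 mitochondrial or 3 scaffold genes. The stretches around it are shown because among the members the core was found in cytosolic genes only, with the core in capitals and each written on the gene's own strand:
AARS, chr16:70289675-70289704, minus strand: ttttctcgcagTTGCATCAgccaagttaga
CARS, chr11:3057407-3057436, minus strand: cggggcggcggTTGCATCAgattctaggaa
IARS, chr9:92293692-92293721, minus strand: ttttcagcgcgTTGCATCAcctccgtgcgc
MARS, chr12:57488053-57488082, plus strand: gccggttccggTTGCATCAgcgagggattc
NARS, chr18:57621804-57621833, minus strand: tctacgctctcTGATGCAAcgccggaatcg
TARS, chr5:33440956-33440985, plus strand: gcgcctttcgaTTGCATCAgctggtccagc
In NARS the core is read on the opposite strand.

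The core of the interferon-stimulated response element was searched on either strand as GAAA, any 2 bases and GAAA. It was in 3.57% of all windows, those of 1195 of 27305 genes, and in those of WARS and EARS2 among the 33 genes. The WARS stretch, with that core in capitals, is shown because WARS is the member with a known interferon response:
WARS, chr14:100375384-100375413, minus strand: ttttcagaaggGAAACTGAAAgaaagaggg
No match of either motif overlapped a match of the other in the members' windows. A match describes letters and not a bound site.

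Synthetase genes moved in both directions, from 67.5% of control for WARS2 to 175% for VARS2. Differences were tested with limma on log2(TPM + 1) over all 15755 genes with a mean of at least 1 TPM, which all 39 members passed, and a gene was called at a Benjamini-Hochberg adjusted p under 0.05. Of the 39, 3 rose (CARS, WARS and VARS2) and 6 fell (QARS, EPRS, SARS, IARS2, FARS2 and WARS2). That is 23.1% called, against 14.8% of all genes tested, where 11.3% rose and 3.47% fell. The median log2 fold change, knockdown minus control, was −0.09 for the cytosolic, −0.02 for the mitochondrial and −0.13 for the scaffold genes, beside 0.08 for all genes. The libraries of the groups did not overlap for 20 of the 39, 8 with knockdown above and 12 below, against 36.5% of all genes, 26.8% above and 9.66% below. With 1 library left out in turn, all genes gave 867 to 1267 rises in place of 1780 and 246 to 366 falls in place of 547, so fewer calls among members are to be read against that.

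**Figure D1:**
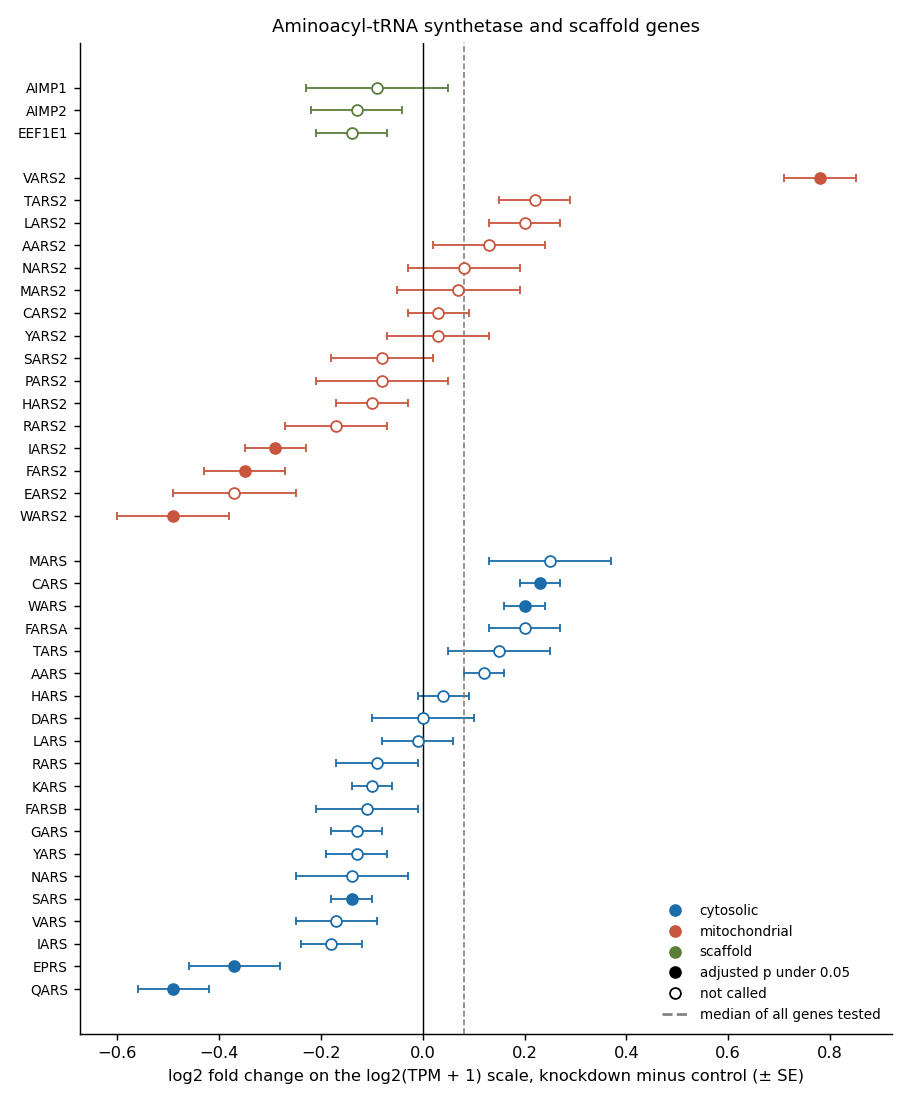
Log2 fold change on the log2(TPM + 1) scale, knockdown minus control, with its SE, for each of the 39 genes, grouped into cytosolic, mitochondrial and scaffold genes. Filled points passed the test (3 rises and 6 falls), and the dashed line is the median of all genes tested, 0.08.

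The split depended on scaling. Median ratio scaling, which removes the small shared rise of all genes, called 12.7% of all genes, 6.42% up and 6.32% down, and among members 1 rise and 11 falls. Quantile normalization called 12.6% of all genes, 6.35% up and 6.22% down, and among members 1 rise and 10 falls. VARS2 was the rise in both, and CARS and WARS were called in neither. IARS, KARS, GARS and EARS2 were called as falls in both beside the 6 genes already named, and YARS with median ratio scaling alone (adjusted p = 0.0558 with quantile normalization). The 14 genes called with or without this scaling are described library by library below, and their levels are plotted together.

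**Figure D2:**
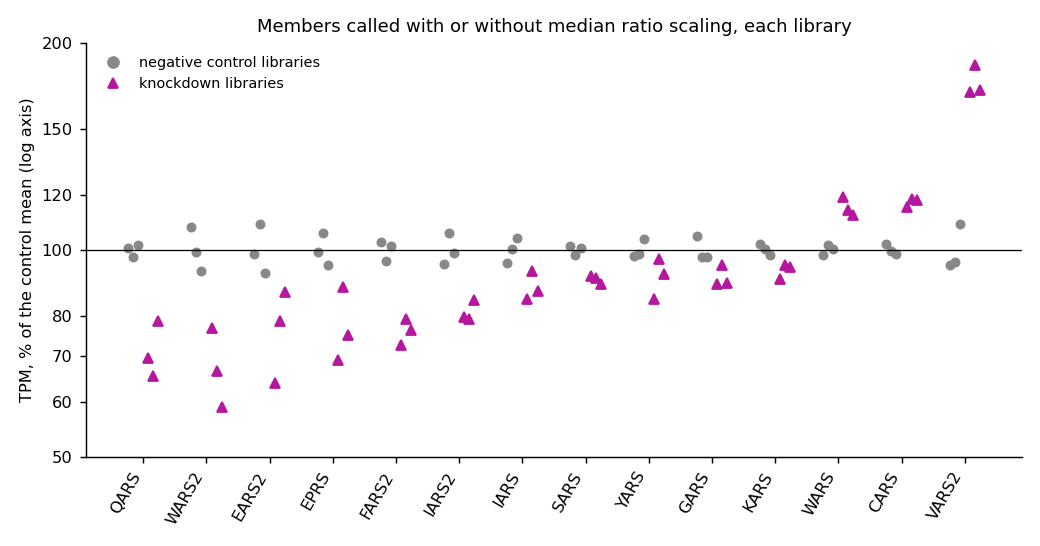
TPM of each library as a percentage of the control mean, on a log axis, for the 14 genes called with or without median ratio scaling. Grey circles are the 3 control libraries and purple triangles the 3 knockdown libraries. In none of the 14 genes do the groups overlap, against 36.5% of all genes tested without overlap. The 14 were chosen by tests on these same libraries, so this is not separate support.

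QARS had the largest fall among cytosolic enzymes. It encodes the glutaminyl enzyme of the multisynthetase complex and has no mitochondrial counterpart, since mitochondria make glutaminyl-tRNA by amidating glutamyl-tRNA. Control replicates 1 to 3 stood at 285, 276 and 287 TPM, and knockdown replicates 1 to 3 at 196, 185 and 223 TPM. All knockdown libraries lay well below all controls, and replicate 3 was the least reduced. QARS fell from 283 ± 5.93 to 201 ± 19.2 TPM (SD, n = 3), or 71.2% of control (log2 fold change −0.49, SE 0.07, limma adjusted p = 0.00618). This call held in all 14 other settings tried, with adjusted p from 0.00296 to 0.0336. The gene lies on chromosome 3 at 49095932 to 49105135, minus strand (GENCODE 29, GRCh38), and none of the 75-base stretches of its coding transcripts occurs in a transcript of another gene on either strand.

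EPRS, a bifunctional enzyme that charges both glutamate and proline, stood at 65.1, 69.5 and 62.4 TPM in control and 45.3, 58.0 and 49.4 TPM in knockdown replicates 1 to 3. The groups did not overlap, but knockdown replicate 2 came close to the lowest control. EPRS fell from 65.6 ± 3.57 to 50.9 ± 6.45 TPM, or 77.5% of control (log2 fold change −0.37, SE 0.09, limma adjusted p = 0.0458). The call was lost without any library other than knockdown replicate 2 (adjusted p = 0.0939 to 0.138 in those 5 fits).

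The other members of the complex did not pass the test, and most stood slightly below control. IARS, the isoleucyl enzyme, stood at 50.5, 52.9 and 54.9 TPM in control and 44.7, 49.2 and 45.9 TPM in knockdown libraries (log2 fold change −0.18, SE 0.06, limma adjusted p = 0.0953, and 0.0214 after median ratio scaling). KARS, the lysyl enzyme, stood at 144, 142 and 139 TPM against 129, 135 and 134 TPM (log2 fold change −0.10, SE 0.04, limma adjusted p = 0.163, and 0.0244 after that scaling). Both genes had every knockdown library below every control, by small margins. LARS, the leucyl enzyme and a leucine sensor for mTORC1, stood at 32.9 ± 2.00 and 32.5 ± 1.62 TPM, RARS for arginine at 60.1 ± 2.23 and 56.7 ± 5.73 TPM and DARS for aspartate at 46.0 ± 0.713 and 46.3 ± 6.54 TPM in control and knockdown. MARS, the methionyl enzyme, was the member of the complex with the highest fold change, 227 ± 26.0 and 270 ± 34.2 TPM (limma, log2 fold change 0.25 with SE 0.12, adjusted p = 0.211). The groups overlapped, and replicate 3 was the lowest of both, at 197 and 231 TPM.

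The scaffold genes lay a little lower in knockdown libraries, and none was called. AIMP1, whose product is also secreted as a cytokine, stood at 36.3 ± 4.61 and 34.2 ± 5.56 TPM. AIMP2 stood at 24.1 ± 0.125 and 22.0 ± 2.57 TPM and EEF1E1, also called AIMP3, at 45.3 ± 3.68 and 41.1 ± 1.6 TPM (limma adjusted p = 0.252 to 0.698 for the 3). The groups overlapped in AIMP1 and EEF1E1 and not in AIMP2. Of the 75-base stretches of AIMP2, 31.8% also occur in EIF2AK1, which overlaps it, and 15.5% of those of EEF1E1 occur in a read-through gene, so reads of these may have been divided. Over the 11 complex genes, 0 rose and 2 fell with a median log2 fold change of −0.10. Over the 12 free cytosolic genes 2 rose and 1 fell with a median of −0.03. After median ratio scaling the complex genes had 0 rises and 4 falls and the free cytosolic genes 0 and 3. The difference between these lists was not tested. By catalytic class, with EPRS left out since it joins an enzyme of each, 3 of the 18 class I genes rose and 3 fell with a median of −0.05, and 0 of the 17 class II genes rose and 2 fell with a median of −0.08, beside 11.3% of all genes rising and 3.47% falling. After median ratio scaling, class I had 1 rise and 6 falls and class II 0 and 4, beside 6.42% and 6.32% of all genes.

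Among the free cytosolic enzymes CARS and WARS rose and SARS fell. CARS, the cysteinyl enzyme, stood at 85.5, 83.6 and 82.7 TPM in control and 96.9, 99.5 and 99.2 TPM in knockdown replicates 1 to 3. Each group was tight and the groups lay well apart. CARS rose from 83.9 ± 1.46 to 98.6 ± 1.44 TPM, 117% of control (log2 fold change 0.23, SE 0.04, limma adjusted p = 0.0133). After median ratio scaling it was 0.14 (adjusted p = 0.074), and the call was also lost without knockdown replicate 2, control replicate 2 or control replicate 3 (adjusted p = 0.0508, 0.0538 and 0.055).

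WARS stood at 163, 169 and 166 TPM in control and 198, 190 and 186 TPM in knockdown replicates 1 to 3. All 3 knockdown libraries were above all controls. WARS rose from 166 ± 3.02 to 191 ± 6.26 TPM, 115% of control (log2 fold change 0.20, SE 0.04, limma adjusted p = 0.0224). After median ratio scaling the value was 0.11 (adjusted p = 0.176), and the call was also lost without knockdown replicate 2 or any of control replicates 1 to 3 (adjusted p = 0.06 to 0.0742). SARS, the seryl enzyme, stood at 156, 151 and 155 TPM in control and 141, 140 and 137 TPM in knockdown replicates 1 to 3. It fell from 154 ± 2.51 to 139 ± 1.85 TPM, 90.4% of control (log2 fold change −0.14, SE 0.04, limma adjusted p = 0.0481), a call lost without any 1 of the 6 libraries (adjusted p = 0.0661 to 0.132) and kept after median ratio scaling (adjusted p = 0.0144).

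GARS was not called on the deposited scale but with each of 3 other scalings, and YARS with median ratio scaling alone of those 3. GARS, the glycyl enzyme and the most abundant member at a mean of 316 TPM, stood at 346, 324 and 324 TPM in control and 295, 315 and 296 TPM in knockdown libraries (log2 fold change −0.13, SE 0.05, limma adjusted p = 0.108, and 0.0239 after median ratio scaling). YARS, the tyrosyl enzyme, stood at 114, 115 and 121 TPM against 98.9, 113 and 108 TPM (log2 fold change −0.13, SE 0.06, limma adjusted p = 0.198, and 0.0389 after that scaling). The gap between groups was narrow in both. The alanyl enzyme gene AARS stood at 145 ± 2.96 and 157 ± 1.77 TPM and FARSA, a subunit of the phenylalanyl enzyme, at 43.8 ± 1.33 and 50.7 ± 4.03 TPM, with no overlap between groups and adjusted p of 0.0905 and 0.101. Its partner subunit FARSB stood at 17.8 ± 2.11 and 16.5 ± 1.29 TPM, and NARS for asparagine at 104 ± 5.47 and 94.8 ± 13.4 TPM. TARS for threonine had a log2 fold change of 0.15 with an SE of 0.10, VARS for valine stood at 36.1 ± 2.84 and 31.9 ± 1.70 TPM and HARS for histidine at 40.9 ± 1.05 and 42.1 ± 0.541 TPM. These 5 overlapped between groups, with limma adjusted p from 0.182 to 0.622.

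Genes with the ATF4 core in their window did not move as a block. Of the 6, CARS rose on the deposited scale, where 14.8% of all genes were called. AARS, MARS and TARS had log2 fold changes of 0.12, 0.25 and 0.15 and IARS and NARS of −0.18 and −0.14, none of them called there. After median ratio scaling CARS was not called and IARS was called as a fall (limma adjusted p = 0.074 and 0.0214), beside 12.7% of all genes called. WARS, which holds the interferon element core, rose on the deposited scale, and EARS2, which holds it too, stood lower without a call. After median ratio scaling WARS was not called and EARS2 was called as a fall (limma adjusted p = 0.176 and 0.0448).

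VARS2 had the largest change of all 39 genes. It encodes the mitochondrial valyl enzyme, in which recessive variants are known to cause a mitochondrial encephalopathy. It stood at 20.7, 21.0 and 23.8 TPM in control and 37.0, 40.5 and 37.2 TPM in knockdown replicates 1 to 3. Every knockdown library lay far above every control. VARS2 rose from 21.8 ± 1.71 to 38.3 ± 1.97 TPM, 175% of control (log2 fold change 0.78, SE 0.07, limma adjusted p = 0.00136), and the call held in all 14 other settings, with log2 fold changes from 0.69 to 0.84. The gene lies on chromosome 6 at 30908242 to 30926459, plus strand (GENCODE 29, GRCh38), and shares none of its 75-base stretches with a transcript of another gene.

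The 3 mitochondrial genes that fell were IARS2, FARS2 and WARS2. IARS2, the isoleucyl enzyme and the most abundant of the class, stood at 48.3, 53.4 and 50.1 TPM in control and 40.4, 40.1 and 42.8 TPM in knockdown replicates 1 to 3. The knockdown libraries were close to each other and below all controls. IARS2 fell from 50.6 ± 2.62 to 41.1 ± 1.45 TPM, 81.2% of control (log2 fold change −0.29, SE 0.06, limma adjusted p = 0.0199). The call was lost without knockdown replicate 1 or 2 or control replicate 2 or 3 (adjusted p = 0.0535 to 0.0715).

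FARS2, the phenylalanyl enzyme, which works as a single chain unlike its cytosolic counterpart, stood at 8.33, 7.83 and 8.23 TPM in control and 5.90, 6.44 and 6.22 TPM in knockdown replicates 1 to 3. It fell from 8.13 ± 0.265 to 6.19 ± 0.272 TPM, 76.1% of control (log2 fold change −0.35, SE 0.08, limma adjusted p = 0.0308), with the groups well apart, but without any 1 library the call was lost (adjusted p = 0.0728 to 0.097). WARS2, the tryptophanyl enzyme, stood at 7.42, 6.83 and 6.40 TPM in control and 5.30, 4.58 and 4.06 TPM in knockdown replicates 1 to 3. It fell from 6.88 ± 0.512 to 4.65 ± 0.623 TPM, 67.5% of control, the lowest ratio of the 39 (log2 fold change −0.49, SE 0.11, limma adjusted p = 0.034), and the call was lost without any library other than knockdown replicate 1 (adjusted p = 0.0738 to 0.102).

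EARS2, the glutamyl enzyme, stood at 15.4, 17.0 and 14.5 TPM in control and 10.01, 12.3 and 13.6 TPM in knockdown libraries. The groups did not overlap, though knockdown replicate 3 lay near the lowest control (log2 fold change −0.37, SE 0.12, limma adjusted p = 0.0894, and 0.0448 after median ratio scaling). TARS2 for threonine and LARS2 for leucine stood higher in every knockdown library, at 28.6 ± 0.500 and 33.6 ± 3.14 TPM and at 8.07 ± 0.154 and 9.45 ± 0.380 TPM, without passing the test (limma adjusted p = 0.0998 and 0.109). AARS2, at 3.04 ± 0.135 and 3.43 ± 0.273 TPM, also did not overlap (limma adjusted p = 0.466). The remaining 8, CARS2, HARS2, MARS2, NARS2, PARS2, RARS2, SARS2 and YARS2, had overlapping groups, log2 fold changes from −0.17 to 0.08 and means from 2.53 TPM for MARS2 to 36.3 TPM for CARS2. HARS2 and HARS lie head to head on chromosome 5 and share part of their sequence, 7.49% and 8.05% of their stretches, and 69.7% of the SARS2 stretches occur in transcripts of other genes, so values of these 3 are less certain.

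Cytosolic and mitochondrial genes of the same amino acid were set side by side in 16 pairs, with EPRS used for both glutamate and proline and FARSA for phenylalanine. The cytosolic message was the more abundant in each pair by mean TPM, from 1.08 times for isoleucine to 98.3 times for methionine. The cytosolic fold change was the higher in 7 pairs and the lower in 9, of which the glutamate pair was level to 2 decimals (−0.37 for both genes). Signs were opposite in 7 pairs. For histidine and tyrosine this rests on HARS at 0.04 and YARS2 at 0.03. The signs of both turn under all 3 other scalings (HARS −0.05, −0.04 and −0.04, YARS2 −0.06, −0.07 and −0.05). For leucine it rests on LARS at −0.01, which was 0.03 without knockdown replicate 1 and 0.02 without control replicate 1. For asparagine it rests on NARS2 at 0.08, which was 0, −0.01 and 0.01 under the same scalings. The ratio within a library does not depend on scaling by 1 factor per library, but quantile normalization can change it.

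For valine, the VARS to VARS2 ratio was 1.82, 1.57 and 1.58 in control and 0.823, 0.834 and 0.845 in knockdown replicates 1 to 3. The mitochondrial message was thus the less abundant in every control and the more abundant in every knockdown library. For tryptophan, the WARS to WARS2 ratio was 22.0, 24.7 and 26.0 in control and 37.4, 41.4 and 45.9 in knockdown replicates 1 to 3. For phenylalanine, the FARSA to FARS2 ratio was 5.42, 5.60 and 5.17 against 9.04, 8.18 and 7.41. Those knockdown ratios were all above the controls. Exact two-sided permutation tests gave p = 0.1 for each of the 3 pairs, the smallest p possible with 3 against 3, and 0.267 adjusted over the 16 pairs. Any pair whose groups do not overlap gives that p. The ratio was also apart between groups for cysteine and histidine, higher in knockdown, and for leucine, lower, and it overlapped in the other 10 pairs. Among all genes tested, the TPM of 36.5% did not overlap between groups, and no such rate was computed for ratios of other gene pairs.

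**Figure D3:**
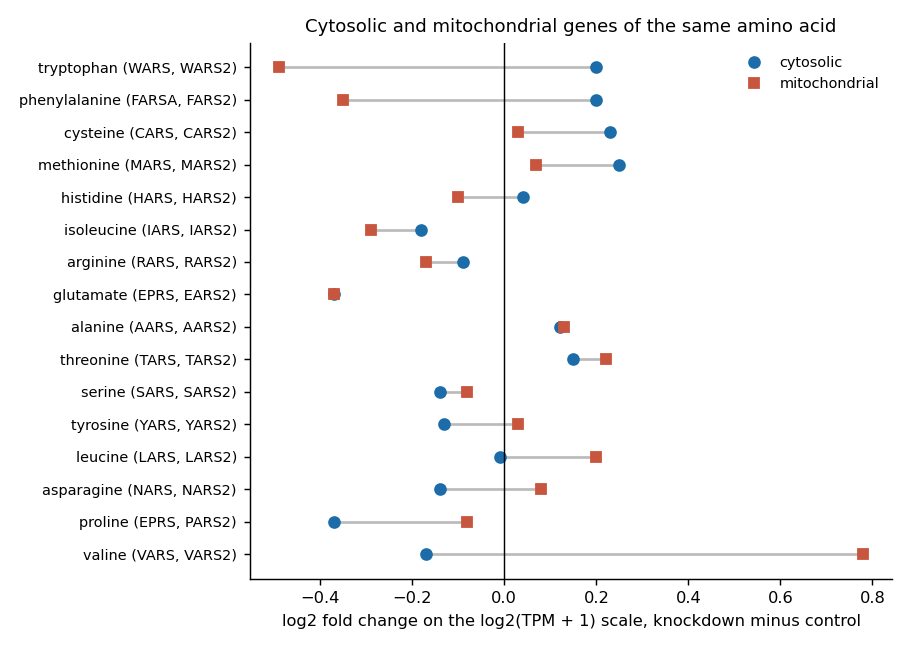
Log2 fold change on the log2(TPM + 1) scale, knockdown minus control, of the cytosolic (circle) and mitochondrial (square) gene for each of 16 amino acid pairs, ordered by their difference. The valine pair has the mitochondrial gene far higher (0.78 against −0.17), and the tryptophan pair has it far lower (−0.49 against 0.20).

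Class totals overlapped between groups. The 20 cytosolic genes summed to 2435, 2434 and 2360 TPM in control and 2290, 2409 and 2380 TPM in knockdown replicates 1 to 3. The 16 mitochondrial genes summed to 280.8, 282.8 and 280.0 TPM and to 276.6, 280.6 and 295.4 TPM, and the 3 scaffold genes to 99.43, 114.1 and 103.8 TPM and to 90.25, 101.4 and 99.99 TPM. Each gene's share of its class sum was then compared. The libraries of the groups did not overlap for 19 of the 39 shares, 11 of them cytosolic and 8 mitochondrial. For TPM that was so in 36.5% of all genes tested, and no such rate was computed for shares of a class. QARS, VARS2 and IARS2 are given as the genes with the largest changes in share. Within the cytosolic sum, the share of QARS went from 11.7% ± 0.419 to 8.54% ± 0.836 (SD, n = 3). Within the mitochondrial sum, the share of VARS2 went from 7.76% ± 0.637 to 13.5% ± 0.927 and that of IARS2 from 18.0% ± 0.856 to 14.5% ± 0.154. Each of the 19 gave the smallest p possible, 0.1, in an exact two-sided permutation test. Groups of 3 that do not overlap always give this p, so it adds nothing to the lack of overlap.

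**Figure D4:**
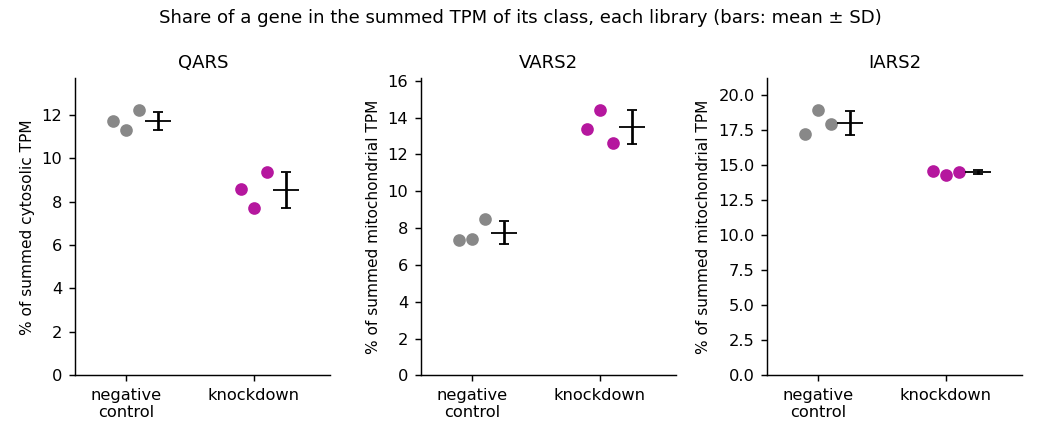
Share of QARS in the summed TPM of the 20 cytosolic genes, and of VARS2 and IARS2 in that of the 16 mitochondrial genes, in each library, with mean and SD. Knockdown libraries lie below control for QARS and IARS2 and above control for VARS2.

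Other genes of transfer RNA charging had no call on the deposited scale. The 19 partner genes include the synthetase TARSL2, the amidotransferase subunits GATB, GATC and QRSL1, editing factors and the exporter XPOT. None was called by limma, against 14.8% of all genes tested. Of the 19, 3 had an unadjusted limma p under 0.05, against 4789 of all 15755 genes. Among the 3 were AARSD1, an alanyl-tRNA editing factor, at 16.4 ± 1.2 and 19.6 ± 0.855 TPM, and DTD1, a D-aminoacyl-tRNA deacylase, at 25.5 ± 1.54 and 21.8 ± 0.835 TPM (limma adjusted p = 0.0761 and 0.0808). After median ratio scaling 2 of the 19 were called as falls, DTD1 among them, beside 6.32% of all genes. The median log2 fold change of the 19 was −0.01, with a range from −0.35 to 0.3.

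Genes of the amino acid response went in both directions. Of 16, 4 rose and 3 fell, with a median log2 fold change of 0.06, beside 11.3% of all genes rising and 3.47% falling. After median ratio scaling 2 rose and 4 fell, beside 6.42% and 6.32% of all genes. Rises were 1 without knockdown replicate 2 or control replicate 3, and 2 without knockdown replicate 3 or control replicate 1 or 2, and falls were 1 without any library other than knockdown replicate 2. ASNS, asparagine synthetase, rose from 86.5 ± 1.98 to 109 ± 4.07 TPM (limma adjusted p = 0.00614) and CHAC1, which degrades glutathione, from 44.2 ± 0.722 to 59.9 ± 5.68 TPM (limma adjusted p = 0.0131), while DDIT3, a stress transcription factor, fell from 268 ± 14.1 to 182 ± 10.9 TPM (limma adjusted p = 0.00235). CEBPB, a partner factor of ATF4, rose from 109 ± 7.09 to 177 ± 38.8 TPM (limma adjusted p = 0.0314, and 0.0502 after median ratio scaling), and STC2, a secreted glycoprotein, from 63.8 ± 5.16 to 78.4 ± 5.1 TPM (limma adjusted p = 0.0475, and 0.158 after that scaling). TRIB3, a pseudokinase that restrains ATF4, fell from 46.7 ± 3.19 to 36.7 ± 3.21 TPM (limma adjusted p = 0.0377), and SLC7A11, the cystine and glutamate exchanger, from 19.5 ± 1.21 to 15.1 ± 1.25 TPM (limma adjusted p = 0.0349). ATF4 itself, which is regulated mainly in translation, stood at 463 ± 7.06 and 453 ± 5.01 TPM (limma adjusted p = 0.578).

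Beside the small rise of WARS, genes of the interferon gamma-type response rose by larger factors. Of 11 listed, 8 passed the filter on mean TPM and 7 rose, beside 11.3% of all genes. One of the 7, SOCS1, a feedback inhibitor of cytokine signalling, passed only through the knockdown group (0.947 ± 0.484 and 2.99 ± 0.384 TPM), and with a filter at 5 TPM 6 rose. Rises were 4 without knockdown replicate 1 or 3 or control replicate 2. IRF1, a transcription factor of that response, rose from 108 ± 6.54 to 174 ± 9.16 TPM, GBP1 from 13.0 ± 1.81 to 24.3 ± 3.16 TPM and IRF9 from 73.4 ± 10.9 to 115 ± 3.26 TPM (limma adjusted p = 0.00118, 0.00768 and 0.00954). Whether the change in WARS follows from these was not tested.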

How the data were processed

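The authors deposited 1 table with a TPM value for each gene and library. The tools fastp, HISAT and RSEM are listed, without versions, per the submitters' processing notes. The notes name the mouse build GRCm38.p5, while 58883 of the 60027 gene IDs are human Ensembl IDs, so no coordinates were taken from the table. Members were found by gene symbol. Positions and shared transcript stretches came from GENCODE 29 on GRCh38, by Ensembl ID, and promoters from RefSeq on GRCh38.p14, by Entrez ID.

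The test was limma 3.58.1 under R 4.3.3, without covariates, its prior spread set to vary with mean level. It ran on log2(TPM + 1) for the genes whose TPM averaged at least 1 over the 6 libraries. P-values are two-sided. Fold changes on this scale understate the change of low genes. The fit was first run on simulated data that held no shift shared by all genes. That run therefore does not bear on the choice of scaling. The members and lists were chosen with earlier results of these data known, and no list was tested as a set. All 39 members are named, with values in every library for those called with or without median ratio scaling. The sources used here do not state whether counting used strand. Protein identity between enzymes was not analysed here. Replicate numbers did not pair the libraries (correlations of same-numbered deviations 0.0172, −0.012 and 0.0448). Some genes and a motif of the lists are not reported here by name.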

Additional observations from a re-analysis of the deposited data

How the results depend on the processing

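QARS and VARS2 kept their calls under all 14 alternatives tried for single genes, and the other 7 calls did not. Cytosolic rises and falls, 2 and 3 as reported, were 0 and 7 under median ratio scaling, 0 and 6 with quantile normalization, 0 and 6 when libraries were rescaled without mitochondrial DNA and ribosomal protein genes, 2 and 1 with no filter, and 1 and 1 with a prior spread without trend. Mitochondrial falls, 3 as reported, were 1 with no filter and 1 with the replicate number as a block. Partner genes had 2, 2 and 1 falls under the 3 scalings in that order. Amino acid response rises, 4 as reported, were 2 under the 3 scalings, with no filter, without trend and with the replicate block, and falls, 3 as reported, were 1 with no filter and 1 without trend. Interferon-type rises, 7 as reported, were 4 with no filter. Over all genes, 1780 rises and 547 falls became 1012 and 996 (median ratio), 1001 and 980 (quantile), 1055 and 802 (rescaled), 1136 and 339 (no filter), 1442 and 407 (no trend), and 1123 and 343 (replicate block). With the block, cytosolic calls were 2 rises (CARS and MARS) and 2 falls (EPRS and QARS), and WARS2 was the mitochondrial fall. MARS was called under the block alone, and the numbers do not pair these libraries. Medians went from −0.09 to −0.18, −0.17 and −0.17 under the 3 scalings for cytosolic genes and to −0.05 without GARS and KARS. They went from −0.02 to −0.11, −0.11 and −0.10 for mitochondrial genes, and to −0.08 with a filter at a mean of 5 TPM. For scaffold genes they went from −0.13 to −0.22, −0.22 and −0.21, and for all genes from 0.08 to 0.00, −0.01 and 0.01, and to 0.03 with no filter. The 3 scalings lowered the median of all genes, and leaving out a library leaves fewer samples. What moved the calls was not tested.

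With each library left out in turn, cytosolic rises ranged from 0 to 3 and falls from 1 to 2, mitochondrial falls from 0 to 1, partner rises from 0 to 1, amino acid response rises from 1 to 3 and falls from 1 to 2, interferon-type rises from 4 to 7, and all genes from 867 to 1267 rises and 246 to 366 falls. Medians ranged from −0.13 to −0.02 (cytosolic), −0.04 to 0.02 (mitochondrial), −0.16 to −0.09 (scaffold) and 0.07 to 0.09 (all genes). Signs turned only in genes that were not called. HARS was −0.05, −0.04 and −0.04, CARS2 −0.06, −0.06 and −0.04 and YARS2 −0.06, −0.07 and −0.05 under the 3 scalings, and MARS2 and NARS2 were −0.04 and −0.01 after quantile normalization. Leaving out a library turned LARS (−0.06 to 0.03), NARS2 (−0.02 to 0.18), YARS2 (−0.07 to 0.12) and AIMP1 (−0.19 to 0.04). TPM keeps no depth, so what depth limits could not be measured.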
